A study of Mus musculus with 12 samples.

Results

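Complex 1, the platinum compound of the study, was compared with no treatment in tumours that received no radiation. The comparison takes 6 of the 12 libraries of the series, 3 from untreated control tumours and 3 from tumours of mice treated with Complex 1 alone. All tumours were grown from the CT26 line, which derives from a colon carcinoma of a BALB/c mouse, and were sequenced as bulk tissue. The remaining 6 libraries come from mice given radiation alone, or Complex 1 and radiation together (called the combination here). They enter the filter on low values, the fit and the comparisons with radiation only. Dose, route, time of sampling, host strain, sex and age are not given in the labels. The labels do not say whether libraries of a group come from separate mice, so p-values reflect only the spread among these libraries, which may be technical. The series title presents the compound as one that X-rays activate, and the comparison shows what it did in the tumours without them.

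Platinum drugs bind to DNA bases, and the resulting crosslinks are handled by nucleotide excision repair, by the Fanconi pathway and by recombination. Damaged DNA can activate p53, whose targets stop the cell cycle or start cell death. Neutrophils are short-lived phagocytes that enter inflamed tissue along gradients of chemokines read by their receptor CXCR2. They carry calprotectin, a pair of S100 proteins, in their cytoplasm, and release proteases and the cytokine interleukin 1 in the tissue.

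Counts summed to 15.6 to 19.1 M (mega counts) per library, and replicates of a group correlated at 0.979 to 0.987 against 0.972 to 0.985 for pairs from different groups (Pearson, log values, across genes, as a description). Along the first principal component of the 6 libraries (34.1% of the variance), controls lay from -19.6 to -7.62 and Complex 1 libraries from 2.20 to 30.7. A pair of libraries stood apart in particular genes. Control replicate 2 held 0.02 FPKM of Xist, the RNA of the inactive X chromosome, and 28 counts over 4 genes of the Y chromosome, whereas the other 5 libraries held 9.20 to 13.48 FPKM and 0 to 1 counts. Across all tested genes this library did not stand apart from the controls. It correlated at 0.986 and 0.985 with control replicates 1 and 3, which correlated at 0.981 with each other. Complex 1 replicate 3 held more interferon response RNA than the others, as given below with those genes. FPKM are counts per kilobase of exon and per mega count of the library.

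Complex 1 was followed by many more rises than falls. Of 13668 genes tested, 98 were higher (0.717%) and 13 lower (0.0951%) than in control tumours, by edgeR's quasi-likelihood test at a p under 0.05 after Benjamini-Hochberg (BH) adjustment, and "rose" and "fell" are used only for these. DESeq2 called 244 and 82. At unadjusted p under 0.05 in edgeR there were 1024 genes with higher and 684 with lower values. The median log2 change was 0.87 over the rises and -0.50 over the falls, against 0.0077 over all tested genes, and 44 rises and 2 falls were at least 2-fold. In all 98 and all 13 the FPKM of the groups did not overlap, which was also so for 11.4% of all tested genes in the higher and 4.71% in the lower direction. Of the rises, 12 were in genes under 1 FPKM in every control library (504 of those tested), which passed the filter on low values through the other groups. By their leading members the rises were genes of neutrophils and phagocytes, chemokines and interleukin 1 family cytokines, and transcripts that share their sequence with other loci.

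The number of calls rested on single libraries. Without control replicate 1, 2 or 3 there were 56, 4 and 52 rises, and without Complex 1 replicate 1, 2 or 3 there were 195, 24 and 51. Falls numbered 5, 0 and 18 without a control and 41, 1 and 6 without a Complex 1 library. The 4 rises that passed without control replicate 2, the library with almost no Xist, were Mmp9 and the pseudogenes Gm28437, Gm28439 and Gm12715. Without it the 98 rises and 13 falls had medians of 0.87 and -0.48, and their highest adjusted p was 0.22 (edgeR). No called gene changed sign without any of the 6 libraries, which their separate groups already make likely. The pseudogenes are named here because of this result, after their values were seen.

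**Figure D1:**
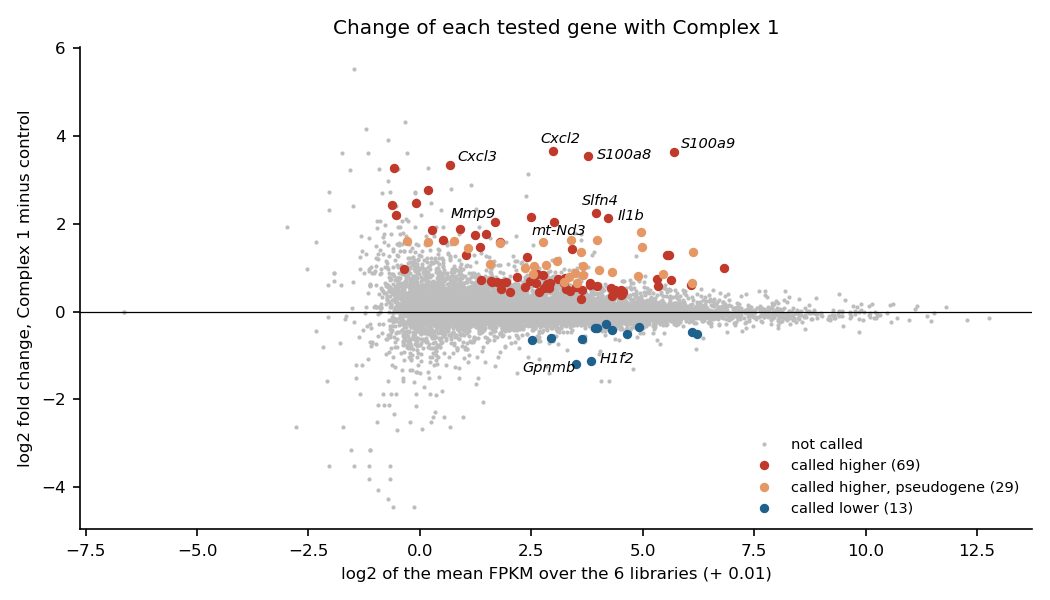
Change of each of the 13668 tested genes. The horizontal axis gives log2 of the mean FPKM of the 6 libraries and the vertical axis the log2 fold change of Complex 1 over control. Red points are rises (69, and 29 pseudogenes in orange), blue points the 13 falls, grey points genes that did not pass. Cxcl2, S100a9 and S100a8 lie highest among the genes that passed, and Gpnmb and H1f2 lowest.

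Chemokines that signal through CXCR2 include the gene that rose most. Cxcl2 (ENSMUSG00000058427, chr5:91051730-91053797, plus strand, mm39) encodes a chemokine that macrophages and other cells release to attract neutrophils. It stood at 1.42, 1.21 and 0.79 FPKM in control replicates 1 to 3 and at 6.85, 19.03 and 18.55 in Complex 1 replicates 1 to 3. The lowest Complex 1 library was above every control, and the log2 change was 3.65 ± 0.47 (SE; edgeR, BH-adjusted p = 0.0073). Cxcl3, its close relative on the same chromosome (chr5:90933962-90937459, mm39), was almost level over the controls at 0.27, 0.28 and 0.29 FPKM. It reached 1.51, 4.20 and 3.04 FPKM with Complex 1, a change of 3.33 ± 0.59 (edgeR, adjusted p = 0.020). The other ligands did not pass the test. Cxcl5 had 0.97 to 1.08 FPKM in controls and 2.46 to 5.47 with the compound (1.92 ± 0.57, edgeR adjusted p = 0.16), without overlap. Cxcl1 had 12.60, 6.11 and 6.29 FPKM in controls against 26.29, 25.78 and 13.29 (1.36 ± 0.51, adjusted p = 0.29), again without overlap, although the third Complex 1 library lay close to the first control. Ppbp, a chemokine of platelets, overlapped (-0.09 ± 0.41, adjusted p = 0.95). Thus 2 of 5 tested ligands rose, against 0.717% of all tested genes. The list median was 1.92, and 0 of 5 passed without control replicate 2. Cxcl3, under 1 FPKM in every control library, passed the filter on low values through the other groups.

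Cxcl1, Cxcl2 and Cxcl3 lie in one cluster on chromosome 5, and the bases just before their start sites are shown because Cxcl2 and Cxcl3 led the rises and their neighbour, which did not pass, carries alike letters there. Capitals mark each match to GGGNNTTTCC, the core of an NF-kB type motif, on either strand (RefSeq, GRCm38.p6, plus strand; chr5:90903789-90903898, chr5:90785991-90786100 and chr5:90891135-90891244 in this order).
Cxcl2: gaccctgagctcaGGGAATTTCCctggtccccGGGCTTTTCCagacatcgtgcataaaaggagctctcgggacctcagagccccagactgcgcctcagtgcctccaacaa
Cxcl3: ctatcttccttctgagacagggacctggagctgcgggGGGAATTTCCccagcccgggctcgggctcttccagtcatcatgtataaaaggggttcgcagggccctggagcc
Cxcl1: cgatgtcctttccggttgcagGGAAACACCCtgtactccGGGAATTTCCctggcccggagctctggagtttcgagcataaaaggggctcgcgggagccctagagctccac
The matches began 97 and 78 bases before the start of Cxcl2 and 73 before that of Cxcl3. In Cxcl1 they began 89 bases before the start on the minus strand and 71 before it on the plus strand. Within 250 bases upstream, such a match was found in 447 of 27025 promoters of the table (1.65%) and in 175 of 9325 tested genes with an entry (1.88%). Of the 98 rises 47 had an entry, and Cxcl2 and Cxcl3 were the 2 with a match (4.26%). Of the 13 falls 11 had an entry and none a match. A match describes letters, not a bound site.

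Of the 47 gene lists, the neutrophil markers held the most rises. S100a9 (ENSMUSG00000056071, chr3:90599939-90603028, minus strand, mm39) and S100a8 (ENSMUSG00000056054, chr3:90576285-90577342, plus strand) encode the subunits of calprotectin. S100a9 stood at 12.02, 6.11 and 4.65 FPKM in controls and at 85.25, 142.44 and 62.26 with Complex 1 (3.63 ± 0.51, edgeR adjusted p = 0.0086). S100a8 stood at 2.12, 1.66 and 2.44 against 18.04, 41.84 and 15.23 FPKM (3.55 ± 0.51, adjusted p = 0.010). The highest level of both was in Complex 1 replicate 2, and no Complex 1 library overlapped a control. Cxcr2, the receptor for the chemokines above, stood at 0.32, 0.29 and 0.09 FPKM in controls and at 1.01, 1.03 and 1.34 with the compound (2.21 ± 0.41, adjusted p = 0.027). The groups were separate, at levels near the filter. Csf3r, the receptor for the neutrophil growth factor G-CSF, rose by 1.24 ± 0.19, from 2.52 to 3.69 FPKM in controls to 6.81 to 8.33. Fpr1, a receptor for bacterial formyl peptides, rose by 1.88 ± 0.31, and Clec4e, a lectin that senses dead cells and mycobacteria, by 1.78 ± 0.29.

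Enzymes that neutrophils carry moved the same way. Mmp9, gelatinase B, stood at 1.79, 0.90 and 1.04 FPKM in controls and at 5.42, 5.11 and 5.11 with Complex 1, a change of 2.04 ± 0.25 (edgeR, adjusted p = 0.0049). The Complex 1 libraries were nearly equal, and Mmp9 was the only neutrophil marker called without control replicate 2 (adjusted p = 0.049). Mmp8, neutrophil collagenase, stood at 0.20, 0.11 and 0.28 FPKM in controls and at 1.27, 1.19 and 0.78 with the compound (2.43 ± 0.39, adjusted p = 0.014). These were the only metalloproteinases or inhibitors that rose among 14 tested, and the median of that list was 0.05. Hdc, which makes histamine, rose by 1.75 ± 0.29. Cstdc4, a gene of the cystatin family of protease inhibitors, rose by 3.28 ± 0.59 from 0.06 to 0.18 FPKM to 0.98 to 1.45. Slfn4, a Schlafen gene of myeloid cells, stood at 5.34, 6.55 and 3.82 FPKM against 19.89, 16.53 and 39.99 (2.25 ± 0.40, adjusted p = 0.021), highest in Complex 1 replicate 3.

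Over the whole list of 30 neutrophil markers, 26 were tested and 10 rose, none fell and 25 had positive values, with a median of 1.83. In 24 the groups did not overlap in the higher direction, against 11.4% of all tested genes, and 0.717% of all tested genes rose. Positive values were found in 7103 of the 13668 tested genes. All gene lists were written with earlier results of these data known, so such shares describe a list and test nothing. Of the 26, 7 were under 1 FPKM in every control library and passed the filter on low values through the other groups. Leaving out 1 library gave 1 to 14 rises and medians of 1.67 to 2.03, with 1 rise without control replicate 2 and 9 without Complex 1 replicate 3. Summed over the list, FPKM were 72.3, 56.1 and 57.2 in controls and 226, 328 and 267 with Complex 1. Retnlg, a resistin-like gene of mature neutrophils, and Stfa2, a stefin, had the largest values that did not pass (4.33 and 5.53). The defining surface marker Ly6g had 0 counts in the controls and 1, 4 and 1 with Complex 1, which is near the limit of detection at this depth. Granule genes made in bone marrow precursors stayed low: Elane, Mpo and Fcnb had no count in any of the 6 libraries, and the 10 genes of that list summed to 0.9 to 1.9 FPKM in controls and 1.6 to 1.7 with Complex 1. In bulk tissue, more cells of a type and more RNA per cell cannot be told apart.

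**Figure D2:**
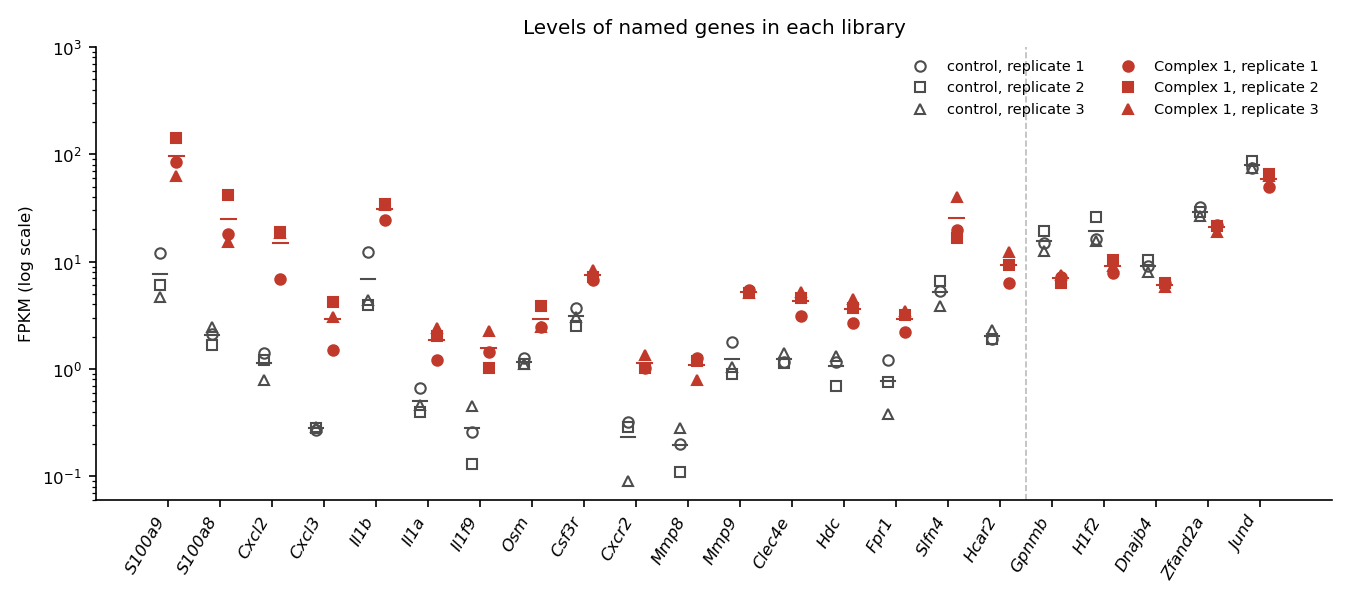
FPKM in each of the 6 libraries on a log axis for 17 genes that rose and, right of the dashed line, 5 that fell. Open grey symbols are control and filled red symbols Complex 1 libraries, the symbol shape is the replicate number and bars are group means. The groups do not overlap in any gene shown. Mmp9 is nearly equal over the Complex 1 libraries, whereas Cxcl2 spans 6.85 to 19.03 FPKM there.

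Cytokines of the interleukin 1 family rose in part. Il1b, a main alarm cytokine of phagocytes, stood at 12.33, 3.92 and 4.35 FPKM in controls and at 24.29, 34.35 and 33.38 with the compound. The change was 2.13 ± 0.38 (edgeR, adjusted p = 0.022), and control replicate 1 lay above the other controls. Il1a, which signals through the same receptor, rose by 1.85 ± 0.37 from 0.40 to 0.66 FPKM to 1.20 to 2.41. Il1f9, interleukin 36 gamma, rose by 2.47 ± 0.49 from 0.13 to 0.45 FPKM to 1.01 to 2.26. The decoy receptor Il1r2 (1.55 ± 0.40, adjusted p = 0.11), Il18 (1.12 ± 0.28, adjusted p = 0.095), the receptor antagonist Il1rn (0.65 ± 0.28, adjusted p = 0.38) and the inflammasome sensor Nlrp3 (0.67 ± 0.23, adjusted p = 0.24) did not pass in edgeR. Il1a and Il1f9, both under 1 FPKM in every control library, passed the filter on low values through the other groups. Of the 15 tested genes 3 rose, against 0.717% of all tested genes. The list median of 0.58 was 0.17 without Complex 1 replicate 3. That library's removal, or that of control replicate 2, left 0 rises in the list.

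Among 9 tested genes of the interleukin 6 family only Osm, oncostatin M, rose (1.29 ± 0.26, edgeR adjusted p = 0.039), from 1.27, 1.11 and 1.12 FPKM to 2.48, 3.84 and 2.47. Il6 itself was at 0.19 to 0.30 FPKM in controls and 0.34 to 0.50 with Complex 1 (0.68 ± 0.66, adjusted p = 0.73), and Lif overlapped (0.14 ± 0.19, adjusted p = 0.82). Of 8 colony stimulating factors and receptors Csf3r alone rose. Csf3, which encodes G-CSF itself, was low at 0.04 to 0.16 FPKM in controls and 0.39 to 0.91 with Complex 1 (2.42 ± 0.91, adjusted p = 0.29). Values for the GM-CSF receptor chains Csf2ra (0.50 ± 0.12, adjusted p = 0.075) and Csf2rb (0.58 ± 0.15, adjusted p = 0.094) were positive without passing. Csf1, the macrophage growth factor gene, had 0.13 ± 0.08 and its receptor gene Csf1r 0.31 ± 0.12.

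Some genes of the phagocyte oxidase list rose by smaller amounts. Ncf1 and Ncf4, which encode cytosolic subunits of the phagocyte NADPH oxidase, rose by 0.51 ± 0.08 and 0.66 ± 0.10. Ncf1 stood at 7.46, 8.27 and 7.88 FPKM in controls and at 10.31, 11.78 and 12.27 with the compound, without overlap. The membrane subunits Cybb (0.46) and Cyba (0.25) did not pass. Hcar2, a receptor for niacin and ketone bodies, rose by 2.16 ± 0.34 from 1.89, 1.90 and 2.31 FPKM to 6.26, 9.20 and 12.31. Of the 14 genes for phagocyte oxidase and suppressor enzymes 4 rose (median 0.54), against 0.717% of all tested genes. The list had 0 to 6 rises when 1 library was left out, and 0 without control replicate 2. Its median was 0.34 without Complex 1 replicate 3. Outside the rule for named genes and chosen after their values were seen, Tyrobp, the adaptor of many activating receptors, rose by 0.61 ± 0.11, Syk, the kinase it recruits, by 0.51 ± 0.10 and Spi1, the PU.1 factor of myeloid cells, by 0.56 ± 0.12. Dok3, a dampener of myeloid signalling, rose by 0.83 ± 0.11, and the Toll-like receptor genes Tlr2 and Tlr13 by 0.69 ± 0.14 and 0.53 ± 0.10. Each of these 6 had no overlap between groups, like 11.4% of all genes in that direction.

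Macrophage, lectin and complement genes shifted less than neutrophil markers. Over all tested genes 0.717% rose. Of 25 macrophage and monocyte markers 3 rose, with a median of 0.36 and 0 to 6 rises when 1 library was left out. They were Ms4a7 (0.74 ± 0.15), the scavenger receptor gene Msr1 (0.44 ± 0.09) and Itgam, the CD11b integrin of neutrophils and macrophages (0.50 ± 0.08). In Itgam 68.3% of the sequence is shared, 67.2% with the overlapping entry Gm49368, so its counts are uncertain. Among 16 lectins and Fc receptors Clec4e and the inhibitory receptor gene Pirb (0.80 ± 0.13) rose, and the median was 0.63. All 16 had positive values, against 7103 of all 13668 tested genes. The list had 0 to 7 rises when 1 library was left out, and 0 without control replicate 2. In Pirb 44.1% of the sequence is shared. Of 15 complement genes, Itgam and Cfp, properdin (0.58 ± 0.12), rose (median 0.45), with 0 to 4 rises when 1 library was left out, 0 without control replicate 2, and a median of 0.26 without Complex 1 replicate 3. No gene of the CC chemokines and their receptors passed among 17 in edgeR (9 at unadjusted p under 0.05, 2 by DESeq2, 0 by limma), although all 17 were positive and their median was 0.61. Ccl3, which attracts monocytes and neutrophils, had the highest value of that list, 1.79. None of 23 NF-kB feedback targets passed (7 at unadjusted p under 0.05, 2 by DESeq2, 0 by limma), and their median was 0.21.

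**Figure D3:**
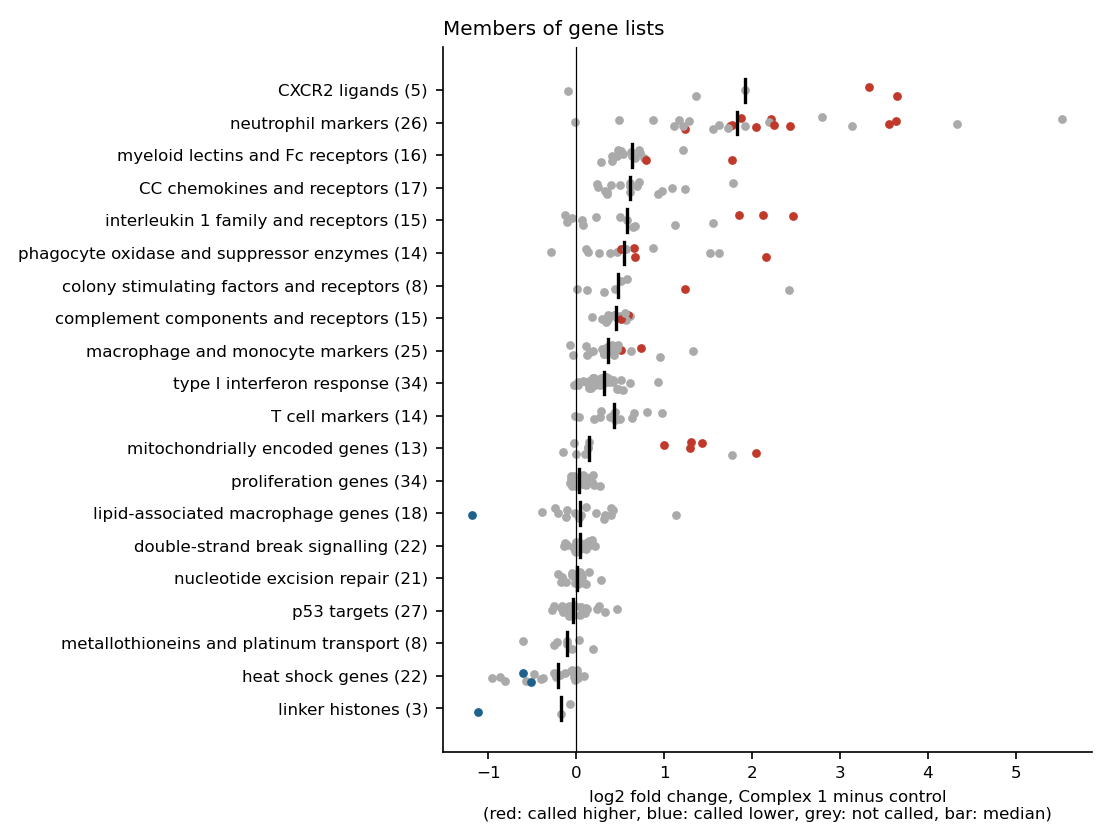
Log2 fold change of Complex 1 over control for the tested members of 20 gene lists, with the number of members in brackets. Each point is a gene (red rose, blue fell, grey did not pass) and the black bar is the list's median. CXCR2 ligands and neutrophil markers have medians of 1.92 and 1.83, whereas the lists for p53 targets, nucleotide excision repair, double-strand break signalling and proliferation have medians from -0.04 to 0.04.

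Interferon and T cell genes did not pass, and their list medians turned negative without 1 library. FPKM summed over 34 type I interferon response genes were 845, 1188 and 1123 in controls and 951, 1046 and 2078 with Complex 1. Only the third Complex 1 library lay above the controls. None of the 34 passed (0 at unadjusted p under 0.05, 0 by DESeq2, 0 by limma), and the median of 0.31 was -0.18 without Complex 1 replicate 3. Ifit1, an antiviral gene, stood at 11.01, 18.50 and 16.09 FPKM against 11.36, 10.91 and 33.00. The 24 genes of the interferon gamma list had a median of 0.42, and of -0.20 without that library (none passed in edgeR, 4 at unadjusted p under 0.05, 0 by DESeq2, 0 by limma). Cxcl10, a chemokine for T cells, had 6.03, 7.85 and 8.80 FPKM against 9.65, 10.96 and 25.31 (0.99 ± 0.30, adjusted p = 0.17). T cell markers (14 tested, median 0.43, and -0.09 without that library) summed to 27.5 to 31.7 FPKM in controls and to 27.8, 34.0 and 62.2 with the compound. None of them passed (edgeR; 3 at unadjusted p under 0.05, 0 by DESeq2, 0 by limma). Cd8a, the coreceptor of cytotoxic T cells, had 0.27 ± 0.52 and Gzmb, a granzyme, 0.69 ± 0.39. B cell and plasma cell markers, of which 3 of 12 were tested and none passed (edgeR; 2 at unadjusted p under 0.05, 0 by DESeq2, 0 by limma), did not follow that library alone. Over all 12 they summed to 7.66, 5.09 and 9.15 FPKM in controls and to 11.38, 16.11 and 36.02 with Complex 1, and the median of 0.88 was 0.77 without it. Of the 98 rises 47 were still called without it, and their median over all 98 was 0.86.

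No gene of the DNA damage lists passed the test, and their medians lay near 0. None of 27 p53 targets passed (edgeR; 1 at unadjusted p under 0.05, 0 by DESeq2, 0 by limma), and their median was -0.04. Cdkn1a, the p21 gene and a standard p53 readout, stood at 47.26, 40.20 and 31.25 FPKM in controls and at 36.05, 44.65 and 38.53 with Complex 1 (-0.02 ± 0.13, adjusted p = 0.97). The groups overlapped, as they did for Mdm2, the p53 ubiquitin ligase gene (-0.08 ± 0.06), and Ccng1, cyclin G1 (0.12 ± 0.08). Medians were 0.0081 over 21 nucleotide excision repair genes, 0.07 over 26 Fanconi and recombination genes and 0.04 over 22 genes of double-strand break signalling. None of these passed in edgeR (3, 2 and 0 at unadjusted p under 0.05, 0 each by DESeq2 and by limma). H2ax, the histone variant gene marked at breaks, had 0.11 ± 0.11. Over 34 proliferation genes the median was 0.03 and none passed (edgeR; 3 at unadjusted p under 0.05, 0 by DESeq2, 0 by limma). Mki67, the Ki-67 gene, stood at 62.66, 66.99 and 68.03 FPKM against 66.02, 63.03 and 68.20.

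Genes that handle metals and oxidants did not pass either. Of 8 tested genes for metallothioneins and platinum transport none passed (edgeR; 1 at unadjusted p under 0.05, 0 by DESeq2, 0 by limma). Mt1, a metal-binding metallothionein gene, stood at 273, 293 and 270 FPKM in controls and at 347, 192 and 194 with Complex 1. Its sister Mt2 stood at 583, 598 and 614 FPKM against 845, 402 and 453. The counts of Mt2 are uncertain, since 58.1% of its sequence is shared, 57.6% with Gm45774. In both, Complex 1 replicate 1 lay above and the other treated libraries below every control (changes of -0.22 ± 0.21 and -0.10 ± 0.25). Slc31a1, the copper transporter that takes up cisplatin, had 0.04 ± 0.08, and Slc30a1, a zinc exporter, -0.60 ± 0.20 (adjusted p = 0.23). Among 23 NRF2 and antioxidant genes none passed (edgeR; 3 at unadjusted p under 0.05, 0 by DESeq2, 0 by limma), with Hmox1, heme oxygenase, at 0.45 ± 0.28.

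The 13 falls were small apart from Gpnmb and H1f2. Gpnmb (chr6:49013480-49047863, mm39), a glycoprotein gene of macrophages and melanocytes, stood at 14.99, 19.12 and 12.53 FPKM in controls and at 7.12, 6.29 and 7.49 with Complex 1. The treated libraries were close together and all below the controls (-1.19 ± 0.18, edgeR adjusted p = 0.011). It was the only fall among 18 lipid-associated macrophage genes, whose median was 0.05, and Ctsk, cathepsin K, had a positive value there without passing (1.13 ± 0.26, adjusted p = 0.063). H1f2 (chr13:23922791-23924350, mm39), a linker histone gene, stood at 16.30, 25.96 and 15.71 FPKM in controls, highest in control replicate 2, and at 7.78, 10.40 and 9.05 with the compound. Its change was -1.12 ± 0.18 (adjusted p = 0.014), and -0.85 without control replicate 2 (adjusted p = 0.051). The linker histone H1f0 did not pass (-0.18 ± 0.10). For 5 tested replication-dependent core histones the median was -0.67, with none past the threshold (edgeR; 2 at unadjusted p under 0.05, 0 by DESeq2, 0 by limma).

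Heat shock genes had lower values as a list. Dnajb4, an HSP40 co-chaperone gene, stood at 9.08, 10.31 and 8.02 FPKM against 6.26, 6.25 and 5.83 (-0.61 ± 0.10, edgeR adjusted p = 0.015). Zfand2a, which helps the proteasome under stress, stood at 32.39, 28.80 and 26.40 against 21.87, 21.62 and 18.99 FPKM (-0.52 ± 0.09, adjusted p = 0.020). Both had no overlap. These 2 fell among 22 tested, against 0.0951% of all tested genes. Of the 22, 10 were lower without overlap (4.71% of all genes). The median was -0.21, but 0 passed without control replicate 2 (median -0.14). Cryab, a small heat shock protein gene, had -0.97 ± 0.24 (adjusted p = 0.096) and its highest level, 47.30 FPKM, in that library. Hspa1a, the inducible HSP70 gene, had -0.81 ± 0.29 (adjusted p = 0.28), with uncertain counts, since 70.1% of its sequence is shared. Ddit3, the CHOP stress factor gene, had -0.64 ± 0.14 (adjusted p = 0.053). None of the 30 ER stress genes passed (edgeR; 8 at unadjusted p under 0.05, 2 by DESeq2, 0 by limma).

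The remaining falls were in genes of differing roles. They were the zinc finger gene Zxdc (-0.62 ± 0.10), the peptide-processing enzyme gene Cpe (-0.50 ± 0.10), the AP-1 subunit gene Jund (-0.45 ± 0.09), Fam107b (-0.43 ± 0.08), the basement membrane collagen gene Col4a5 (-0.37 ± 0.07), the retroelement silencer gene Resf1 (-0.37 ± 0.08), the ubiquitin ligase gene Pja2 (-0.36 ± 0.07), the splicing regulator gene Mbnl2 (-0.28 ± 0.06) and the unannotated transcript C030015A19Rik (-0.64 ± 0.12). Col4a5 had the least spread, at 17.25, 16.78 and 17.18 FPKM in controls and 13.68, 13.20 and 13.43 with Complex 1. In Jund 50.1% of the sequence is shared with the overlapping entry Gm11175, so its counts are uncertain. It was the only fall among 25 AP-1 and immediate early genes.

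Many rises were in transcripts whose sequence also occurs at another locus. Of the 98 rises 29 were pseudogenes by their GENCODE M21 class, and of the 13 falls none was. Among 1031 tested pseudogenes 2.81% rose, against 0.717% of all tested genes, and their median was 0.15. Sharing was measured as the percent of a gene's runs of 31 bases that also occur in an annotated transcript of another gene. Of 1217 tested genes with at least 50% shared sequence 3.04% rose, and of 12278 with less 0.497% rose. All 29 pseudogenes and 37 of the 98 rises had at least 50%. Reads of such genes can be dropped or split between loci in counting. How the authors treated them is not given in the sources used here, so these rises are uncertain. With such genes left out of the fit 45 genes rose and 9 fell.

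Mitochondrially encoded genes rose only where nearly all of their sequence was shared. These genes encode subunits of the respiratory chain, and 5 of 13 rose, against 0.717% of all tested genes. mt-Nd3 stood at 4.23, 2.71 and 2.27 FPKM in controls and at 14.74, 12.16 and 11.94 with Complex 1 (2.04 ± 0.26, edgeR adjusted p = 0.0073). mt-Co3 was almost level over the controls at 27.01, 26.36 and 26.94 FPKM and reached 81.16, 58.78 and 61.40 (1.30 ± 0.19, adjusted p = 0.011). The groups of both were well apart. mt-Nd4l (1.43 ± 0.30), mt-Atp6 (1.29 ± 0.17) and mt-Co2 (1.00 ± 0.15) also rose, and in these 5 genes 98.1% to 100% of the sequence is shared. The 8 that did not pass share 0% to 63.9%. mt-Co1 stood at 6943, 7658 and 7106 FPKM in controls and at 7791, 6045 and 6140 with the compound (-0.15 ± 0.14). Since reads of shared sequence can be dropped or split, FPKM of different mitochondrial genes cannot be compared as amounts of RNA. mt-Nd1, with 0% shared, had -0.03 ± 0.17. By this measure mt-Atp8 stood out, with 7.47% shared and a value of 1.77 ± 0.40 that did not pass (edgeR, adjusted p = 0.065). It lies next to mt-Co2 and overlaps the start of mt-Atp6. Of its 204 bases, 43 align to the nuclear pseudogene Gm10925 at 100% identity. In controls mt-Atp8 had 7.22, 6.93 and 2.21 FPKM. With Complex 1 it had 24.6, 15.71 and 16.77 FPKM. The measure covers annotated transcripts only, so copies of mt-Atp8 outside them were not searched for. Without control replicate 2 none of the 13 passed.

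Nuclear copies of mitochondrial genes rose as well. On chromosome 1, within chr1:24650616-24655278 (mm39), the pseudogenes Gm28439, Gm10222, Gm28437, Gm10925 and Gm29216 all passed, and are named here after their values were seen. Over their aligned lengths they match mt-Nd4, mt-Nd4l, mt-Co3 and mt-Atp6 at 100% identity, and mt-Co1 at 98.78%. Gm28437 stood at 14.29, 14.17 and 12.62 FPKM in controls and at 60.07, 39.87 and 46.50 with Complex 1 (1.81 ± 0.18, edgeR adjusted p = 0.0017). Of the 5 mitochondrial genes, mt-Nd4l, mt-Co3 and mt-Atp6 rose and mt-Nd4 and mt-Co1 did not pass, although their copies did: Gm28439 rose by 1.62 ± 0.19 against 0.13 ± 0.13 for mt-Nd4. Gm29216, which differs from mt-Co1 at 6 of 492 bases, rose by 1.48 ± 0.21. All the differences lie in the bases shown, 1054 to 1113 of mt-Co1 (GENCODE M21 transcripts), with the differing letters in capitals.
mt-Co1: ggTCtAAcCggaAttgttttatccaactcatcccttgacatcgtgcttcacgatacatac
Gm29216: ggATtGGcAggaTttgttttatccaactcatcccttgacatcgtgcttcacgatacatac
The rest of the copy is the same letter for letter, so a read that lies wholly within it cannot be assigned to 1 of the loci.

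**Figure D4:**
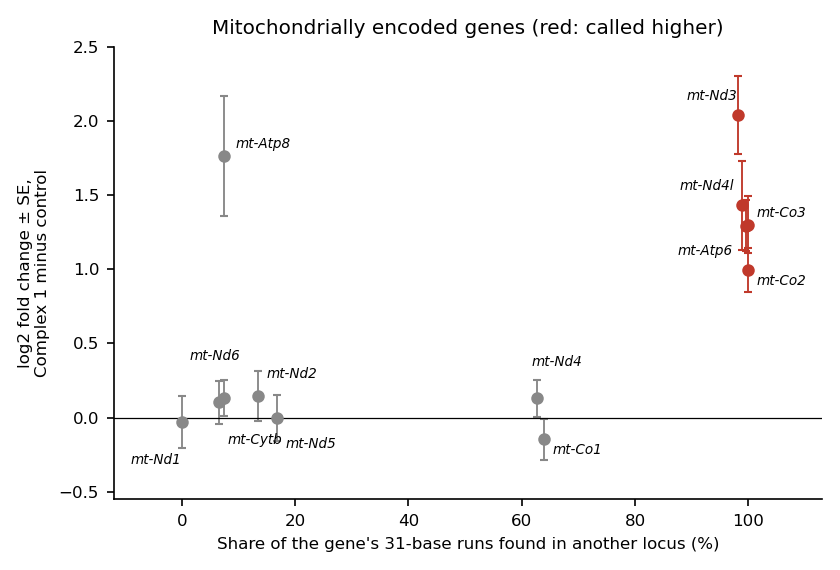
The 13 mitochondrially encoded genes. The horizontal axis gives the percent of each gene's 31-base runs found in an annotated transcript of another gene. The vertical axis gives the log2 fold change of Complex 1 over control with its SE. The 5 genes that rose (red) lie at 98.1% or more, and those that did not pass (grey) at 63.9% or less.

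The compound's effect was then set beside its effect in irradiated tumours, the combination against radiation, which shares no library with the comparison above. There, 84 genes were higher (0.615%) and 5 lower (0.0366%) in edgeR. Of the 98 rises without radiation 40 were also called with it, 40.8% of the 98 and 47.6% of the 84, and 96 of 98 had positive values. Of the 13 falls none was called with radiation and 10 had negative values. Among the called genes, chosen on their effect without radiation, 76 of 98 rises were smaller with it, with a median of 0.66. Over all tested genes the changes correlated at 0.35 (Pearson, a description across genes). No gene passed the test of the difference between both effects (edgeR; 601 at unadjusted p under 0.05, 6 by DESeq2, 0 by limma), and the smallest adjusted p was 0.94.

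Neutrophil and chemokine genes were among those called both times. S100a9 had 3.63 without and 4.23 with radiation, S100a8 3.55 and 4.50, Cxcl2 3.65 and 3.89 and Cxcr2 2.21 and 3.28. Cxcl5 and Cxcl1, which did not pass without radiation, were called with it (3.36 and 3.30). Among genes named above that were not called with radiation, chosen after their values were seen, Ncf1 had 0.51 without and 0.03 with it, Itgam 0.50 and 0.16, Tyrobp 0.61 and 0.14, Ms4a7 0.74 and 0.25 and Syk 0.51 and 0.49. Mmp9 had 2.04 and 0.84, and Gpnmb -1.19 and -0.39. Since edgeR called the difference for no gene after the filter on low values (6 by DESeq2), these pairs describe values only.

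**Figure D5:**
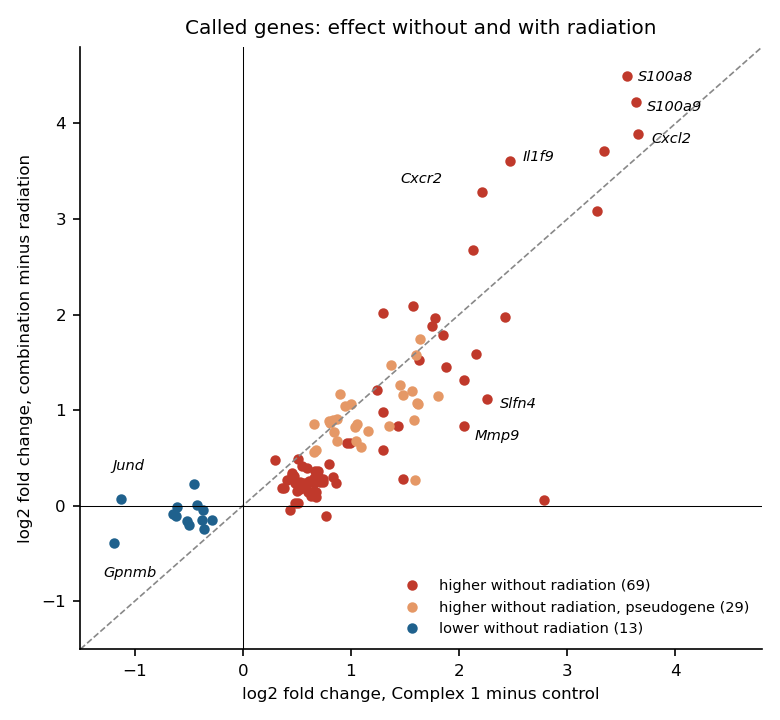
Log2 fold change of the 111 called genes without radiation (horizontal, Complex 1 over control) and with it (vertical, combination over radiation). The dashed line marks equal change. S100a8, S100a9 and Cxcr2 lie above it, most of the smaller rises below it, and the 13 falls (blue) lie near 0 on the vertical axis, between -0.39 and 0.23.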

How the data were processed

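Bulk RNA of CT26 tumours was sequenced, with libraries made by an NEB Next Ultra kit per the labels. The submitters' processing notes name STAR 2.5.3a, HTSeq 2.0.1, DESeq2 and build mm39. For their roles, the strand setting and reads with several matches, the answer is not given in the sources used here, so reads of antisense or overlapping genes cannot be separated. The deposited table holds, per the file headers, raw counts, FPKM and gene length for 55415 entries. FPKM recomputed from the deposited counts and lengths differed by at most 0.005.

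The 13668 genes that reached 1 FPKM in 3 or more of all 12 libraries were tested with edgeR 4.0.16 (R 4.3.3) on counts, with TMM scaling, a mean per group over all 12 libraries and BH adjustment over all tested genes (threshold 0.05). Alternatives used DESeq2 1.42.0, limma 3.58.1 on log2(FPKM + 1), other scalings and filters, a replicate block and leaving out each library. Entries without a symbol (1492) held 0.0579% to 0.0653% of the 6 libraries' counts. A count of 3 over 2 kb of exons corresponds to 0.0785 to 0.0961 FPKM, for counting error only. On simulated counts for Complex 1 against control over 13668 genes, 60% of 100 genes changed 1.5-fold and 77% of 100 changed 2-fold were called. There were 4 false calls (2.84% of calls). The simulated counts held no library that deviates as a whole, so these rates need not hold for the real calls.

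The comparison and the 47 gene lists (866 genes written, 715 tested) were chosen with earlier results of these data known. Named genes were the 15 largest changes per direction among called genes without overlap, the 3 smallest p of each list with a called member (15 lists), all members of 7 lists and 14 set genes, leaving out predicted genes and pseudogenes. Shared sequence was computed from GENCODE M21 transcripts with runs of 31 bases (13495 tested genes had a value).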

Additional observations from a re-analysis of the deposited data

Results flagged for a closer look

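Cryab, a small heat shock protein gene, differed in direction between tumours without and with radiation. Its log2 change with Complex 1 was -0.97 without radiation, where every treated library lay below every control, and 0.22 with radiation, where the treated libraries lay above those given radiation alone. The test of the difference gave an unadjusted p of 0.00405 (edgeR) and did not pass after adjustment over all genes. Its highest control level was in control replicate 2, the library with almost no Xist, whose part in the result was not tested beyond the value of -0.54 without it.

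Jund, an AP-1 subunit gene, had -0.45 without and 0.23 with radiation, again with groups apart in opposite directions. The unadjusted p of the difference was 0.00019 (edgeR), and the adjusted p did not fall under 0.05. Its counts are uncertain, since 50.1% of its sequence is shared with an overlapping entry.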

How the results depend on the processing

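The number of calls moved with the processing. With 1 library left out there were 4 to 195 rises and 0 to 41 falls. DESeq2 called 244 rises and 82 falls, all 111 calls included, no filter gave 591 and 212 over 31727 genes, and only the compared groups in the fit gave 40 and 5. In alternatives chosen after seeing the data, leaving out genes with at least 50% shared sequence gave 45 rises and leaving out both control replicate 2 and Complex 1 replicate 3 (the doubted libraries) gave 2 and 0. The difference between the effects without and with radiation was called for 6 genes by DESeq2 and 163 without a filter. The cause of these moves was not tested. With the replicate number as a block 75 rose and 12 fell. Deviations from the group means correlated at 0.128, -0.114 and 0.164 for same-numbered libraries and at -0.242 to 0.166 for differently numbered ones. With so few libraries this cannot show whether the numbers pair the samples.

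Signs changed only in values near 0 or with wide error that did not pass. With 1 library or both doubted libraries left out, Ppbp ran from -0.369 to 0.262 (0.161 without Complex 1 replicate 3), Cdkn1a from -0.17 to 0.125, Mki67 from -0.0645 to 0.00766, Mt2 from -0.516 to 0.0975, Slc31a1 from -0.0188 to 0.0843, Cd8a from -0.226 to 0.53, Gzmb from -0.0365 to 1.03 and Ifit1 from -0.482 to 0.522. Cdkn1a also had 0.00678 with library totals, 0.0201 and 0.0209 in limma and 0.00719 without both doubted libraries. Depth limits genes under about 0.1 FPKM.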
